A study of Mus musculus with 21 samples.

Results

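The cytosolic asparagine tRNAs with anticodon GTT and aspartate tRNAs with anticodon GTC were taken as all tRNA rows of the deposited count tables whose names start with Asn or Asp, with the mitochondrial rows left out. They were 7 of the 213 tRNA rows listed over both tables, 3 for Asn-GTT and 4 for Asp-GTC. Asn-GTT-1-1, Asn-GTT-2-1, Asn-GTT-3, Asp-GTC-1 and Asp-GTC-2-1 were listed for both tissues, Asp-GTC-4-1 for cerebrum and Asp-GTC-3-1 for cerebellum, so each tissue had 6 rows. All 6 passed the filter on low counts in each tissue. A row is an isodecoder, a tRNA sequence that shares its anticodon with sister sequences. Reads of near-identical isodecoders can be split between rows, so single rows are uncertain and the sum per anticodon is given beside them.

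tRNA-Asn with anticodon GTT reads both asparagine codons, AAC and AAU, and tRNA-Asp with anticodon GTC reads both aspartate codons, GAC and GAU. With the histidine (GTG) and tyrosine (GTA) tRNAs they form the group whose wobble guanosine is replaced by queuosine. Mammals take up the base of queuosine from diet and gut bacteria, and the QTRT1-QTRT2 enzyme inserts that base. In vertebrates the queuosine of tRNA-Asp also carries a mannose and that of tRNA-Tyr a galactose. RNA polymerase III, whose largest subunit is Polr3a, makes all nuclear tRNAs, whereas mitochondrial tRNAs are made from mitochondrial DNA by another polymerase. The counts report RNA abundance and say nothing of queuosine or of charging with amino acid.

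The libraries came from C57BL/6J mice fed ad libitum, in which tamoxifen induced recombination on postnatal day 28. Tissue was taken and flash frozen on day 42. The groups were Polr3a mutant cerebellum (5 libraries), wildtype cerebellum (6), Polr3a mutant cerebrum (4) and wildtype cerebrum (6), and the wildtype mice had also received tamoxifen. Both sexes were in every group. The labels do not give the Cre driver, the mutant allele or the cells that recombined. They also do not state that each library is a mouse of its own, so all p-values refer to the spread among these libraries, which may be technical. Same-numbered libraries of the tissues matched in sex within each genotype. Whether they came from the same mouse is not stated, and the main tissue tests treat them as independent. Total RNA of whole tissue was used, so fewer cells of a type and less tRNA per cell cannot be told apart in any value below.

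Cerebrum libraries held 4353056 to 7588902 tRNA counts. In cerebellum, depth ran close to genotype: mutants 2 to 5 and wildtype 5 held 4831721 to 7110313 counts, while mutant 1 and the other 5 wildtype libraries held 1612754 to 2272675. The mitochondrial share of tRNA counts also moved with genotype, at 14.0% to 21.2% in mutants and 12.5% to 14.4% in wildtype cerebellum, and at 12.8% to 15.7% in mutants and 10.4% to 11.7% in wildtype cerebrum. Beyond the scalings and depth classes given below, the part of depth and of the mitochondrial share in the genotype or tissue results was not tested. Cerebrum mutant 1, the deepest library, stood apart in the aspartate tRNAs, and its values are given with each result it touches.

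In NCBI RefSeq's annotation of GRCm38.p6 (the mm10 assembly), 13 gene copies carry the name of a GTT asparagine tRNA, all 74 bases long, and 16 carry that of a GTC aspartate tRNA, all 72 bases long. 6 of the asparagine copies lie on chromosome 3 within 175781 bases, from n-TNgtt4 (start 96322074) to n-TNgtt12 (end 96497854). 5 of the aspartate copies lie on chromosome 1 within 65414 bases, from n-TDgtc4 (start 171037029) to n-TDgtc5 (end 171102442), and the asparagine copy n-TNgtt6 ends 3013 bases before the first of them. 3 more aspartate copies lie on chromosome 13 within 29078 bases. In GENCODE M21, 9 of the 13 asparagine copies and 14 of the 16 aspartate copies overlap no other gene. Of the aspartate copies, 1 lies in an intron of Aqr, and 1 copy of each anticodon overlaps an exon, n-TNgtt7 in Ndufs7 and n-TDgtc12 in Gm11280. The sources do not tie rows of the count tables to gene copies, so rows are not placed on the genome.

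The mitochondrial counterparts read the same codons and serve below as a comparison within each library. Their gene sequences are shown from GENCODE M21 (mm10), 5′ to 3′ on the gene's strand, with the anticodon in capitals. mt-Tn lies on the minus strand of chromosome M at 5089 to 5159 and mt-Td on its plus strand at 6942 to 7011.
mt-Tn: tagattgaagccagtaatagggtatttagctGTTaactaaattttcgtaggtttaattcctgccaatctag
mt-Td: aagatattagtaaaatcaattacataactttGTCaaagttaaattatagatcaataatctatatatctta
Sequences of the nuclear rows were not used here.

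Asn-GTT and Asp-GTC were among the most abundant nuclear tRNAs in every library. The Asn-GTT sum took 8.26% ± 1.04 of nuclear tRNA counts in mutant cerebellum (SD, n = 5) and 8.15% ± 0.72 in wildtype cerebellum (n = 6), and 11.6% ± 0.54 in mutant cerebrum (n = 4) and 10.8% ± 0.628 in wildtype cerebrum (n = 6). It ranked 1 to 3 by counts among 50 nuclear anticodons. The Asp-GTC sum took 7.25% ± 0.815 in mutant and 7.15% ± 0.851 in wildtype cerebellum, and 8.72% ± 2.32 in mutant and 7.56% ± 0.94 in wildtype cerebrum, and ranked 2 to 5. The high SD of the mutant cerebrum group comes with cerebrum mutant 1, at 12.2%, beside 7.29%, 7.80% and 7.62% in mutants 2, 3 and 4.

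On counts brought to a common library size (CPM) and scaled over all 21 libraries with TMM, a trimmed mean that assumes most tRNAs do not change, the order of the groups was the same for both sums. For Asn-GTT, mutant cerebrum had 107286 ± 23224 CPM, wildtype cerebrum 106778 ± 10005, wildtype cerebellum 65849 ± 7548 and mutant cerebellum 62303 ± 9686 (SD). For Asp-GTC, mutant cerebrum had 82819 ± 37407 CPM, wildtype cerebrum 75230 ± 12258, wildtype cerebellum 57850 ± 8454 and mutant cerebellum 54447 ± 5220. Within a tissue, the genotypes stood next to each other in this order and overlapped, as the plot of levels by library shows. The step between the tissues was tested below.

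**Figure D1:**
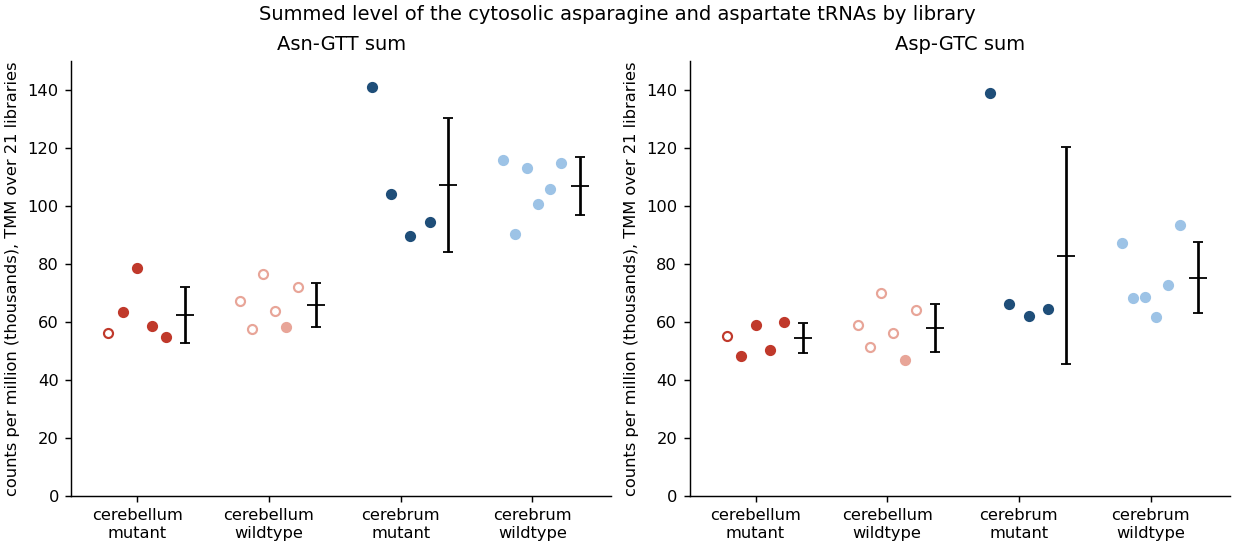
Level of the Asn-GTT and Asp-GTC sums in each library, in units of 1000 TMM-scaled CPM; each point is 1 library, open points are the shallow cerebellum libraries, and the black bar is the group mean with its SD. For Asn-GTT all cerebellum libraries lie below all cerebrum libraries, for Asp-GTC the wildtype tissues overlap, the genotypes overlap within each tissue, and 1 mutant cerebrum library stands at 138869 CPM for Asp-GTC.

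1 isodecoder carried nearly all asparagine counts. Asn-GTT-3 made up 99.5% ± 0.0492 of Asn-GTT counts in mutant and 99.4% ± 0.0542 in wildtype cerebellum, and 99.7% ± 0.00897 in mutant and 99.6% ± 0.0356 in wildtype cerebrum. Asn-GTT-2-1 and Asn-GTT-1-1 held the rest, with 306 to 1450 and 244 to 960 counts per library. The aspartate counts were divided less steeply: Asp-GTC-1 held 83.1% ± 0.699 in mutant and 83.5% ± 0.594 in wildtype cerebellum, and Asp-GTC-2-1 nearly all of the remainder. Asp-GTC-3-1 (5 to 49 counts per cerebellum library) and Asp-GTC-4-1 (4 to 25 counts per cerebrum library) were close to the counting limit.

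Neither sum differed between genotypes in cerebrum beyond the spread between libraries. The Asn-GTT sum had 118613, 99077, 82470 and 93364 CPM in mutants 1 to 4, against a lowest, median and highest value of 85866, 97499 and 103335 CPM in wildtype (TMM within the tissue). The groups overlapped, and the log2 fold change was 0.03 ± 0.15 (SE; edgeR, quasi-likelihood F-test, adjusted p = 0.94 by Benjamini-Hochberg over 72 anticodons). The Asp-GTC sum had 116877, 62906, 56890 and 63724 CPM in mutants 1 to 4, against 56925, 65610 and 82955 CPM in wildtype (lowest, median, highest). Mutant 1 lay above all wildtype libraries and the other 3 mutants within or below their range, with a fitted change of 0.14 ± 0.17 (log2, SE; edgeR adjusted p = 0.704). Without mutant 1 the fold change was −0.15 for Asp-GTC and −0.08 for Asn-GTT. Of all 72 anticodons 11.1% passed with edgeR, against 0 of these 2. At an unadjusted p under 0.05 the count was also 0, where 29.2% of all sums were, and DESeq2 called 0. In 8.33% of all sums the groups did not overlap.

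Among the 6 rows in cerebrum, 0 passed, where 19.7% of all 208 rows did. 1 had an unadjusted p under 0.05, where 32.2% of all rows did, and DESeq2 also called 0. The groups overlapped in all 6, and in 15.4% of all rows they did not. The median log2 fold change was 0.08 for the 6 rows and −0.03 for all rows. Asn-GTT-2-1, the minor asparagine isodecoder, had the lowest value, −0.38 ± 0.16 (SE; edgeR adjusted p = 0.102). Its levels were 228, 192, 143 and 147 CPM in mutants 1 to 4, against a lowest, median and highest of 197, 229 and 271 CPM in wildtype, so 3 mutants lay below every wildtype library and mutant 1 overlapped them. Without mutant 1 the fold change was −0.47 and passed (edgeR adjusted p = 0.0231). Asp-GTC-2-1 had the highest value, 0.37 ± 0.19 (SE; edgeR adjusted p = 0.171), with 23586, 11426, 10927 and 11647 CPM in mutants and 9066, 10849 and 14276 CPM in wildtype (lowest, median, highest). Asn-GTT-3 (0.11 ± 0.15), Asp-GTC-1 (0.20 ± 0.19), Asn-GTT-1-1 (−0.01 ± 0.14) and Asp-GTC-4-1 (0.05 ± 0.39, SE) lay nearer to 0.

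The division of each anticodon among its isodecoders needs no scaling between libraries, and in cerebrum it differed between genotypes. Asn-GTT-2-1 made up 0.177%, 0.190%, 0.169% and 0.158% of Asn-GTT counts in mutants 1 to 4, against 0.194%, 0.243% and 0.306% in wildtype (lowest, median, highest). All 4 mutants lay below all 6 wildtype libraries, with means of 0.173% ± 0.0135 in mutants and 0.246% ± 0.0366 in wildtype (SD). The exact permutation test, two-sided, gave p = 0.00952, the lowest value possible with 210 splits, and an adjusted p = 0.0261 over 156 isodecoders. The highest mutant and the lowest wildtype library are close, so the gap rests on 0.190% against 0.194%.

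Asp-GTC-2-1 took a larger part of the aspartate counts in mutant cerebrum: 18.6%, 17.8%, 18.6% and 18.3% in mutants 1 to 4, against 16.1%, 16.6% and 17.3% in wildtype (lowest, median, highest). The groups did not overlap, with means of 18.3% ± 0.407 in mutants and 16.7% ± 0.505 in wildtype (SD; exact permutation p = 0.00952, adjusted p = 0.0261). Mutant 1, far above the others in its aspartate level, was within the range of the other mutants in this share. Asp-GTC-1 and Asn-GTT-3 are the counterparts of these rows within their anticodons and moved the other way by construction, at 81.7% in mutants and 83.3% in wildtype for Asp-GTC-1. Asn-GTT-1-1 overlapped, at 0.100% ± 0.0108 in mutants and 0.108% ± 0.00565 in wildtype (SD; exact permutation p = 0.171, adjusted p = 0.248).

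Thus 4 of 5 member shares passed in cerebrum, while 46.2% of all 156 tested isodecoder shares passed and 36.5% did not overlap between the groups. A changed division was therefore common among isodecoders in this tissue, and since the shares of an anticodon add to a fixed total, the 4 calls are not independent of each other. With any 1 mutant left out, all 4 calls were lost (adjusted p between 0.0523 and 0.0652), since 3 against 6 libraries allow no p below 0.0238, and the differences kept their sign. They stayed between −0.08 and −0.06 percentage points for Asn-GTT-2-1 and between 1.53 and 1.84 for Asp-GTC-2-1 over all 10 libraries left out.

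**Figure D2:**
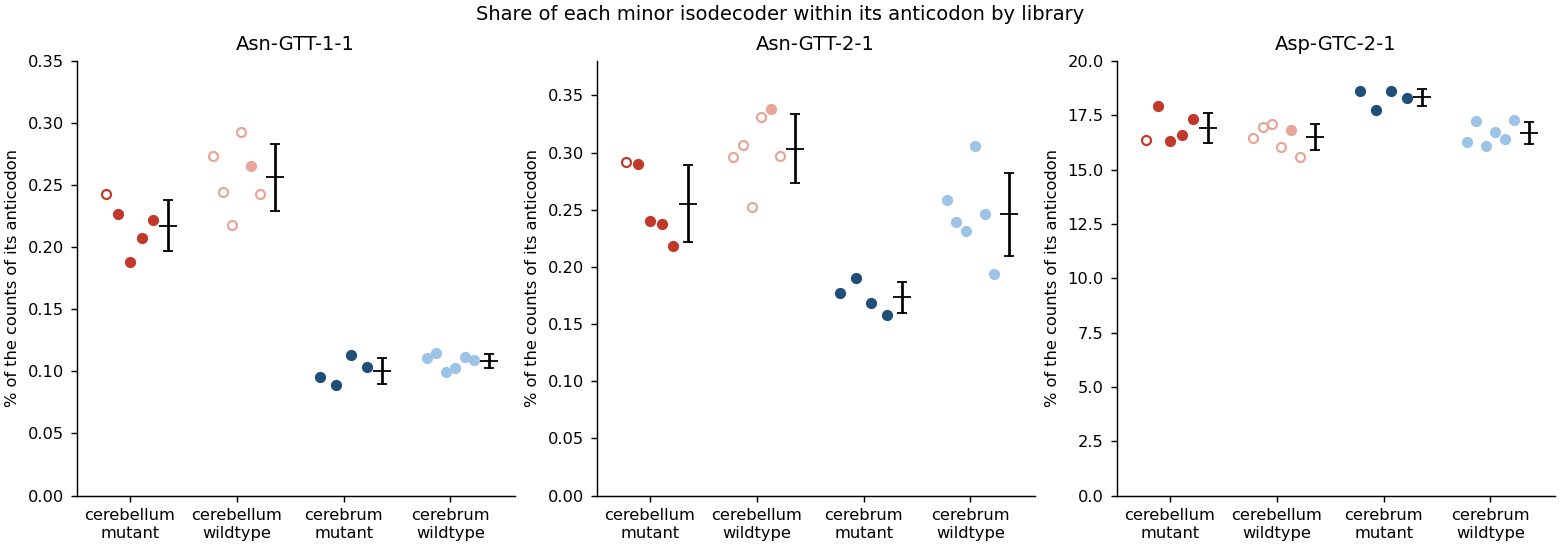
Share of Asn-GTT-1-1, Asn-GTT-2-1 and Asp-GTC-2-1 among all counts of their anticodon, in percent, with 1 point per library, open points for shallow cerebellum libraries, and the group mean with its SD in black. In cerebrum the mutants lie below wildtype for Asn-GTT-2-1 and above it for Asp-GTC-2-1, and Asn-GTT-1-1 has a higher mean in cerebellum than in cerebrum.

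Ratios of sums within a library were compared next, 11 for each comparison. The ratio to Tyr-GTA, another queuosine tRNA and one with an intron in its genes, had the lowest p-values in cerebrum. log2 Asn-GTT to Tyr-GTA was 3.42, 2.61, 2.97 and 2.63 in mutants 1 to 4, against 1.96, 2.13 and 2.66 in wildtype (lowest, median, highest), a difference of 0.68 ± 0.22 (SE; exact permutation p = 0.0286, adjusted p = 0.21). log2 Asp-GTC to Tyr-GTA was 3.40, 1.95, 2.43 and 2.08 in mutants and 1.31, 1.60 and 2.36 in wildtype, a difference of 0.75 ± 0.36 (SE; exact permutation p = 0.0381, adjusted p = 0.21). Neither passed after adjustment, and both pairs of groups overlapped.

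The Tyr-GTA sum itself had 11089, 16242, 10559 and 15103 CPM in mutants, against 16155, 22258 and 23543 CPM in wildtype cerebrum (lowest, median, highest), which is −0.65 ± 0.14 as log2 fold change (SE; edgeR adjusted p = 0.00126). His-GTG, the fourth queuosine tRNA, had −0.10 ± 0.16 (SE; edgeR adjusted p = 0.876). So of the 4 queuosine anticodons, with TMM and edgeR, the tyrosine sum passed in cerebrum and the asparagine, aspartate and histidine sums did not. In the authors' deposited table for cerebrum the histidine sum passed too, at −0.44 (adjusted p = 0.0232), beside −0.99 for tyrosine (adjusted p = 4.53e-07). Of all sums 44.6% passed there.

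log2 Asn-GTT to mitochondrial asparagine tRNA was 4.92, 5.21, 4.97 and 5.24 in mutants, against 5.16, 5.36 and 5.69 in wildtype cerebrum, a difference of −0.31 ± 0.12 (SE; exact permutation p = 0.0571, adjusted p = 0.21). For Asp-GTC to mitochondrial aspartate tRNA the difference was −0.25 ± 0.27 (SE; exact permutation p = 0.314, adjusted p = 0.524). With TMM the mitochondrial aspartate row rose in mutants by 0.43 ± 0.11 (SE; edgeR adjusted p = 0.00691), with all 4 mutants above all 6 wildtype libraries, and the mitochondrial asparagine row had 0.42 ± 0.16 (SE; edgeR adjusted p = 0.0794). In the fit over anticodon sums mitochondrial aspartate had 0.35 ± 0.13 and did not pass (SE; edgeR adjusted p = 0.0798). All mitochondrial rows together had a median of 0.42. The authors' deposited table for single tRNAs in cerebrum did not show such a rise, with 0.02 for mitochondrial aspartate (adjusted p = 0.864) and 0.02 for mitochondrial asparagine (adjusted p = 0.948), as log2 of mutant over wildtype after its sign was turned as described below. In total 0 of the 11 ratios passed in cerebrum, and 2 had an unadjusted p under 0.05.

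**Figure D3:**
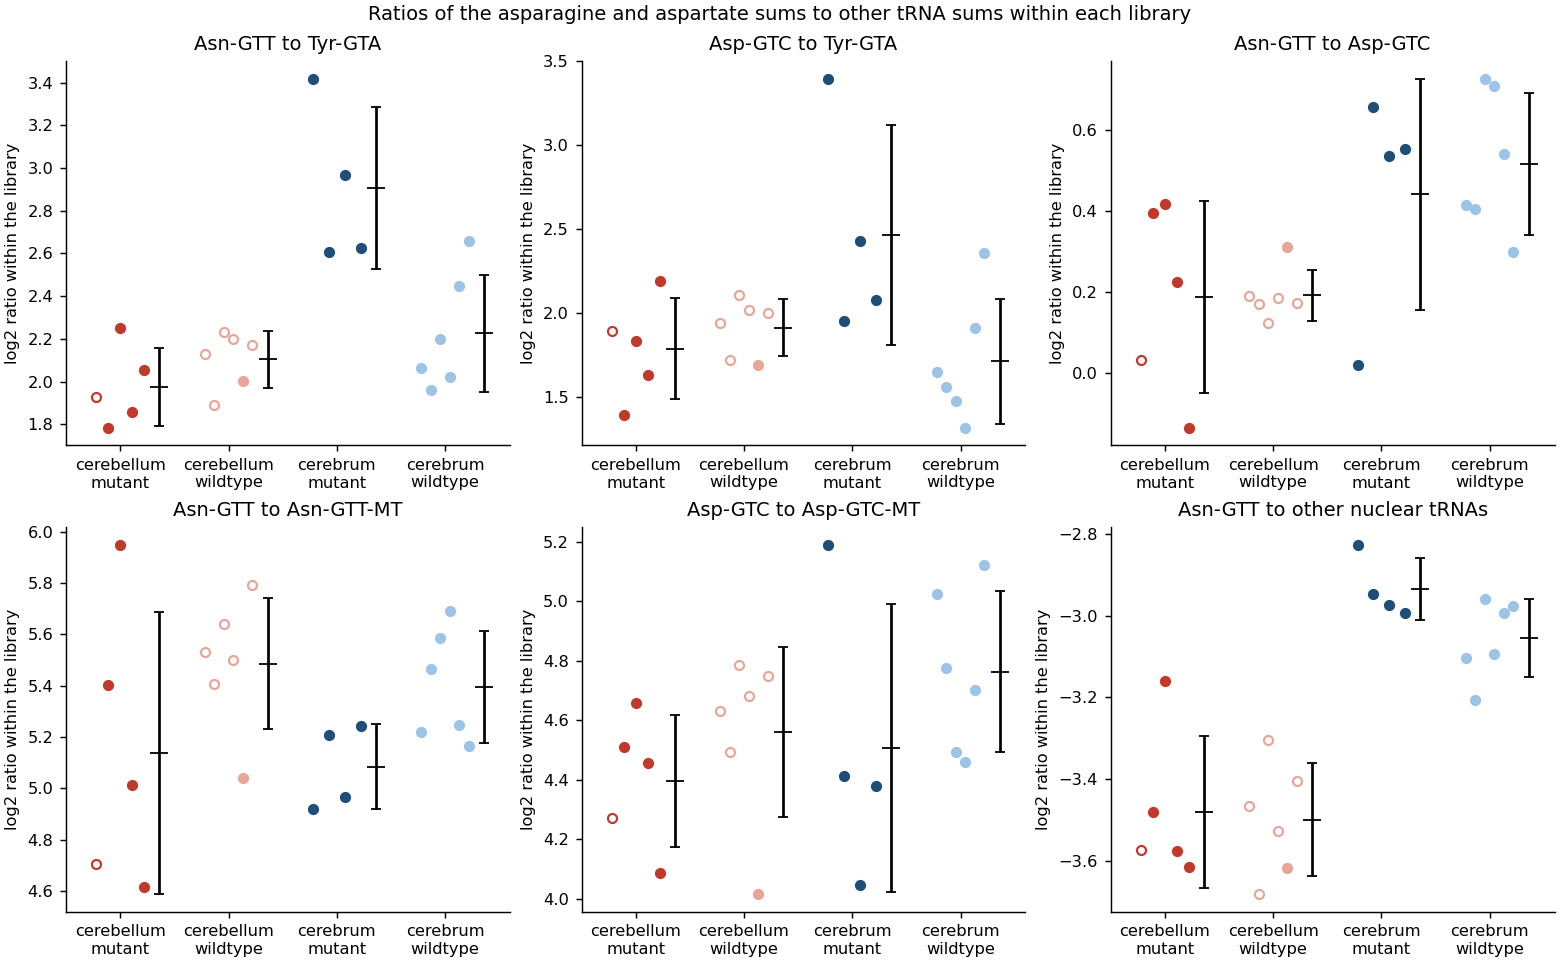
log2 ratios of the Asn-GTT and Asp-GTC sums to other sums of the same library, with 1 point per library, open points for shallow cerebellum libraries, and the group mean with its SD in black. Mutant cerebrum lies higher in the ratios to Tyr-GTA, with overlap, and within each genotype cerebellum lies below cerebrum in Asn-GTT to other nuclear tRNAs, while in Asn-GTT to Asp-GTC the tissues overlap in both genotypes.

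The cerebrum sums lay within their SE of 0 with TMM, and their sign changed with the scaling of the libraries, as it did without mutant 1. With libraries scaled to their mitochondrial total instead of TMM, Asn-GTT had −0.29 and Asp-GTC −0.17, and with scaling to the spike-in, the bacterial glutamine tRNA row of each table, −0.26 and −0.16. The median of all 72 sums was then −0.29 and −0.25, against 0.02 with TMM, so Asn-GTT lay at the median and Asp-GTC above it under both. Among the rows, the median of all 208 was −0.41 with mitochondrial and −0.36 with spike-in scaling, against −0.03 with TMM. Asn-GTT-2-1 lay below that median under each, at −0.78 (edgeR adjusted p = 0.000248) with mitochondrial and −0.77 (edgeR adjusted p = 0.0034) with spike-in scaling, and passed. Asn-GTT-1-1 passed with mitochondrial scaling alone, at −0.40 (edgeR adjusted p = 0.034). Passing members were thus 0 with TMM, 2 lower and 0 higher with mitochondrial scaling, and 1 lower and 0 higher with the spike-in, where 53.4% of all 208 rows passed with mitochondrial and 35.6% with spike-in scaling.

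In cerebellum, neither sum and no row passed between genotypes. The Asn-GTT sum had 61142, 69257, 85442, 63283 and 59470 CPM in mutants 1 to 5, against 62576, 70898 and 82897 CPM in wildtype (lowest, median, highest), giving −0.08 ± 0.12 as log2 fold change (SE; edgeR adjusted p = 0.752). The Asp-GTC sum had 59737, 52731, 63968, 54124 and 65303 CPM in mutants and 51077, 62283 and 76072 CPM in wildtype, −0.09 ± 0.12 (SE; edgeR adjusted p = 0.751). Both pairs overlapped, and 0% of the 71 anticodons passed with edgeR (17, or 23.9%, at an unadjusted p under 0.05, and 3 with DESeq2), while 1.41% did not overlap. For the 2 sums the count at an unadjusted p under 0.05 was 0, and 0 with DESeq2.

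Of the 6 cerebellum rows, 0 passed with edgeR, 0 had an unadjusted p under 0.05, and DESeq2 called 0. Of all 202 rows 2.48% passed, 19.8% had an unadjusted p under 0.05 and 2.97% did not overlap between the groups. All 6 members overlapped. The minor asparagine rows had the lowest values. Asn-GTT-1-1 had 155, 155, 161, 132 and 143 CPM in mutants 1 to 5, against 151, 185 and 193 CPM in wildtype (lowest, median, highest), −0.26 ± 0.12 (SE; edgeR adjusted p = 0.247). Asn-GTT-2-1 had 187, 199, 204, 151 and 141 CPM in mutants, against 190, 213 and 225 CPM in wildtype, −0.26 ± 0.13 (SE; edgeR adjusted p = 0.269). Asn-GTT-3 (−0.02), Asp-GTC-1 (−0.03), Asp-GTC-2-1 (0.01) and Asp-GTC-3-1 (0.06) were near 0, and the median of the 6 rows was −0.02 beside −0.03 for all rows. With mitochondrial scaling Asn-GTT-1-1 (−0.60) and Asn-GTT-2-1 (−0.59) passed (edgeR adjusted p = 0.0338 and 0.0445), and with spike-in scaling both again (−0.83 and −0.84; edgeR adjusted p = 0.0186 and 0.0171), while the median of all rows was −0.37 and −0.59. Of all 202 rows 26.2% passed with mitochondrial and 41.1% with spike-in scaling.

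The shares of the minor asparagine rows were lower on average in mutant cerebellum but did not pass. Asn-GTT-1-1 took 0.217% ± 0.0207 of Asn-GTT counts in mutants and 0.256% ± 0.0267 in wildtype (SD; exact permutation p = 0.039, adjusted p = 0.156 over 148 isodecoders). Asn-GTT-2-1 took 0.255% ± 0.0334 in mutants and 0.304% ± 0.0305 in wildtype (SD; exact permutation p = 0.026, adjusted p = 0.145). Both overlapped. With the exact permutation test 0.0% of all 148 shares passed and 0 of 5 member shares, 3 of them with an unadjusted p under 0.05, where 26.4% of all shares had one, and 7.43% of all shares did not overlap. Between libraries of like depth, the difference for Asn-GTT-2-1 was −0.005 percentage points in the shallow class (0.292% in the mutant, 0.297% in 5 wildtype) and −0.09 in the deep class (0.246% in 4 mutants, 0.338% in the wildtype library). For Asn-GTT-1-1 the values were −0.01 and −0.05. Permuted within depth classes, p was 0.133 and 0.2, where the smallest possible is 0.0667. Asp-GTC-2-1 had 16.9% ± 0.695 in mutants and 16.5% ± 0.595 in wildtype (SD; exact permutation p = 0.325).

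Of the 11 ratios within a library, 0 passed in cerebellum and 0 had an unadjusted p under 0.05. log2 Asn-GTT to Tyr-GTA differed by −0.13 ± 0.098 (SE; exact permutation p = 0.208), where it had differed by 0.68 in cerebrum. The ratios to the spike-in had the lowest p, −0.56 ± 0.27 for Asn-GTT (SE; exact permutation p = 0.0519, adjusted p = 0.571) and −0.55 ± 0.30 for Asp-GTC (SE; exact permutation p = 0.104). Within depth classes the differences for Asn-GTT were −0.91 in the shallow and −0.19 in the deep class.

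No member differed detectably in its genotype effect between the tissues. The effect in cerebellum minus that in cerebrum was −0.09 ± 0.19 for the Asn-GTT sum and −0.23 ± 0.24 for the Asp-GTC sum (SE; edgeR adjusted p = 0.968 and 0.872), and lay between −0.39 for Asp-GTC-2-1 and 0.10 for Asn-GTT-2-1 among the 5 rows of both tables. Calls with edgeR were 0 of 2 sums and 0 of 5 rows, at an unadjusted p under 0.05 and with DESeq2 as well. Of all sums 1.39% passed and 9.72% had an unadjusted p under 0.05, and of all rows 4.9% and 14.7%. The sum that passed was Tyr-GTA, at 0.74 ± 0.18 (SE; edgeR adjusted p = 0.0179).

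The tissues differed more than the genotypes. In wildtype they also differed in depth: the shallow cerebellum libraries held 1612754 to 2272675 counts, against 4353056 to 6171896 in cerebrum. The mitochondrial share was 12.5% to 14.4% in wildtype cerebellum and 10.4% to 11.7% in wildtype cerebrum. The spike-in share was 0.40% to 0.94% and 0.22% to 0.32%. Beyond the scalings given, the part of these in the tissue differences was not tested. In wildtype, cerebellum had a lower Asn-GTT sum than cerebrum with −0.70 ± 0.13 as log2 fold change (SE; edgeR adjusted p = 1.4e-05), with all 6 cerebellum libraries (57577 to 76362 CPM) below all 6 cerebrum libraries (90156 to 115942 CPM), where 65.3% of sums did not overlap. The Asp-GTC sum was lower by −0.38 ± 0.16 (SE; edgeR adjusted p = 0.0307) and overlapped, with 46854 to 70075 CPM in cerebellum and 61718 to 93279 CPM in cerebrum. Such differences were the rule, since 75% of the 72 anticodons passed, and the median over all of them was −0.16. The aspartate call was lost with library totals (−0.12, edgeR adjusted p = 0.386) and with nuclear tRNAs only (−0.29, edgeR adjusted p = 0.0655). It was also lost without cerebrum wildtype 1 (−0.33), cerebrum wildtype 6 (−0.31), cerebellum wildtype 2 (−0.35) or cerebellum wildtype 5 (−0.33). The asparagine call was kept in each of these.

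All 5 rows of both tables passed in the wildtype tissue comparison, 4 lower and 1 higher in cerebellum, where 71.1% of the 204 rows passed, 37.7% lower and 33.3% higher. Asn-GTT-3 was lower by −0.73 ± 0.12, Asn-GTT-2-1 by −0.42 ± 0.14, Asp-GTC-2-1 by −0.43 ± 0.16 and Asp-GTC-1 by −0.40 ± 0.16 (SE; edgeR adjusted p = 5.25e-06, 0.0079, 0.0181 and 0.022). Asn-GTT-1-1 went the other way: it had 137, 162 and 174 CPM in wildtype cerebellum (lowest, median, highest), against 99.5, 110 and 122 CPM in wildtype cerebrum, without overlap. As log2 fold change that was 0.51 ± 0.13 (SE; edgeR adjusted p = 0.000717), which spike-in scaling turned to −0.37 (edgeR adjusted p = 0.164), with a median of all rows of −0.99. Without overlap were 3 of the 5 rows, against 52.9% of all rows. With library totals, 2 rows passed, Asn-GTT-1-1 and Asn-GTT-3, where 68.6% of all rows did. Without cerebrum wildtype 6, 3 rows passed, Asp-GTC-1 (−0.33, edgeR adjusted p = 0.0676) and Asp-GTC-2-1 (−0.34, edgeR adjusted p = 0.0644) being lost, and Asp-GTC-1 also missed the threshold without cerebrum wildtype 1 (−0.38) or cerebellum wildtype 5 (−0.35).

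Free of scaling, Asn-GTT-1-1 made up 0.218%, 0.255% and 0.293% of Asn-GTT counts in wildtype cerebellum (lowest, median, highest), against 0.0999%, 0.110% and 0.115% in wildtype cerebrum. The means were 0.256% ± 0.0267 and 0.108% ± 0.00565 for cerebellum and cerebrum (SD, n = 6 each; exact permutation p = 0.00216, the lowest possible with 924 splits; adjusted p = 0.00499 over 143 isodecoders). In mutants the shares were 0.217% ± 0.0207 in cerebellum and 0.100% ± 0.0108 in cerebrum (SD). Shares were not tested between the mutant tissues, for this or any other isodecoder. Asn-GTT-2-1 was also larger in wildtype cerebellum, at 0.304% ± 0.0305 against 0.246% ± 0.0366 in cerebrum, with overlap (SD; exact permutation p = 0.0216, adjusted p = 0.034), and its complement Asn-GTT-3 smaller by −0.21 percentage points. The Asn-GTT-2-1 call was lost without any 1 of 7 libraries (cerebrum wildtype 2, 3, 5 or 6, or cerebellum wildtype 2, 4 or 5), with differences of 0.0474 to 0.0577 percentage points and adjusted p between 0.0527 and 0.0666 in the exact permutation test. The aspartate division did not differ detectably, Asp-GTC-2-1 holding 16.5% ± 0.595 in cerebellum and 16.7% ± 0.505 in cerebrum (SD; exact permutation p = 0.584). So 3 of 5 shares passed, beside 66.4% of all 143, and 2 did not overlap, beside 43.4%.

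Ratios within wildtype libraries placed the asparagine tRNAs lower in cerebellum against some references and not against others. log2 Asn-GTT to all other nuclear tRNAs was −3.68, −3.50 and −3.30 in cerebellum (lowest, median, highest), against −3.21, −3.04 and −2.96 in cerebrum, without overlap (difference −0.44 ± 0.069 SE; exact permutation p = 0.00216, adjusted p = 0.00476). The same ratio for Asp-GTC differed by −0.09 ± 0.11 (SE; exact permutation p = 0.446). The ratio of asparagine to aspartate counts was accordingly lower in cerebellum, at log2 values of 0.12, 0.18 and 0.31, against 0.30, 0.48 and 0.72 in cerebrum (lowest, median, highest), with overlap of 1 library in each tissue (difference −0.32 ± 0.075 SE; exact permutation p = 0.00433, adjusted p = 0.00794). The gene copies differ in length by 74 against 72 bases, so these count ratios are close to ratios per length.

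Among the queuosine tRNAs, histidine moved opposite to asparagine and aspartate. The His-GTG sum was higher in wildtype cerebellum by 1.85 ± 0.15 (SE; edgeR adjusted p = 4.6e-12), and Tyr-GTA was lower by −0.59 ± 0.12 (SE; edgeR adjusted p = 4.23e-05). log2 Asn-GTT to Tyr-GTA differed by −0.12 ± 0.12 and did not pass (SE; exact permutation p = 0.37, adjusted p = 0.452). log2 Asn-GTT to His-GTG was 3.84 to 4.70 in cerebellum and 6.29 to 7.11 in cerebrum, a difference of −2.54 ± 0.18 (SE; exact permutation p = 0.00216, adjusted p = 0.00476). For Asp-GTC to His-GTG it was −2.22 ± 0.22 (SE; exact permutation p = 0.00216, adjusted p = 0.00476). The mitochondrial asparagine sum was lower in cerebellum as well, by −0.81 ± 0.17 (SE; edgeR adjusted p = 6.01e-05), so the ratio of cytosolic to mitochondrial asparagine tRNA differed by 0.09 ± 0.14 (SE; exact permutation p = 0.522). In all, 6 of 11 ratios passed, the other 2 being those to the spike-in (−1.66 for Asn-GTT and −1.34 for Asp-GTC). Without cerebrum wildtype 6 a further one passed, Asp-GTC to Tyr-GTA at 0.33 (exact permutation test, adjusted p = 0.034).

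Mutants gave the same direction for the abundant members. They share no library with the wildtype comparison, but they do share its fit, with 1 scaling and 1 estimate of spread over all 21 libraries. The sums were −0.78 ± 0.15 for Asn-GTT and −0.61 ± 0.18 for Asp-GTC in cerebellum over cerebrum (SE; edgeR adjusted p = 2.78e-05 and 0.00373), without overlap, where 80.6% of sums passed and 45.8% did not overlap. Of the 5 rows 3 passed, all lower in cerebellum and without overlap, where 72.5% of rows passed (36.8% lower) and 48% did not overlap: Asn-GTT-3 at −0.88 ± 0.14, Asp-GTC-2-1 at −0.81 ± 0.18 and Asp-GTC-1 at −0.66 ± 0.18 (SE; edgeR adjusted p = 3.3e-06, 0.000312 and 0.00171). Asn-GTT-2-1 had −0.33 ± 0.16 and Asn-GTT-1-1 0.24 ± 0.15 (SE; edgeR adjusted p = 0.0684 and 0.141). Asn-GTT-2-1 passed without cerebrum mutant 3 (−0.44), cerebrum mutant 4 (−0.41) or cerebellum mutant 3 (−0.41). Without cerebrum mutant 1 the Asp-GTC sum fell short of the threshold (−0.26, edgeR adjusted p = 0.0997) and Asn-GTT-1-1 passed (0.34, edgeR adjusted p = 0.038), while Asp-GTC-1 (−0.33) and Asp-GTC-2-1 (−0.46) still passed with smaller values. With library totals Asp-GTC-1 missed the threshold (−0.29, edgeR adjusted p = 0.0556).

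**Figure D4:**
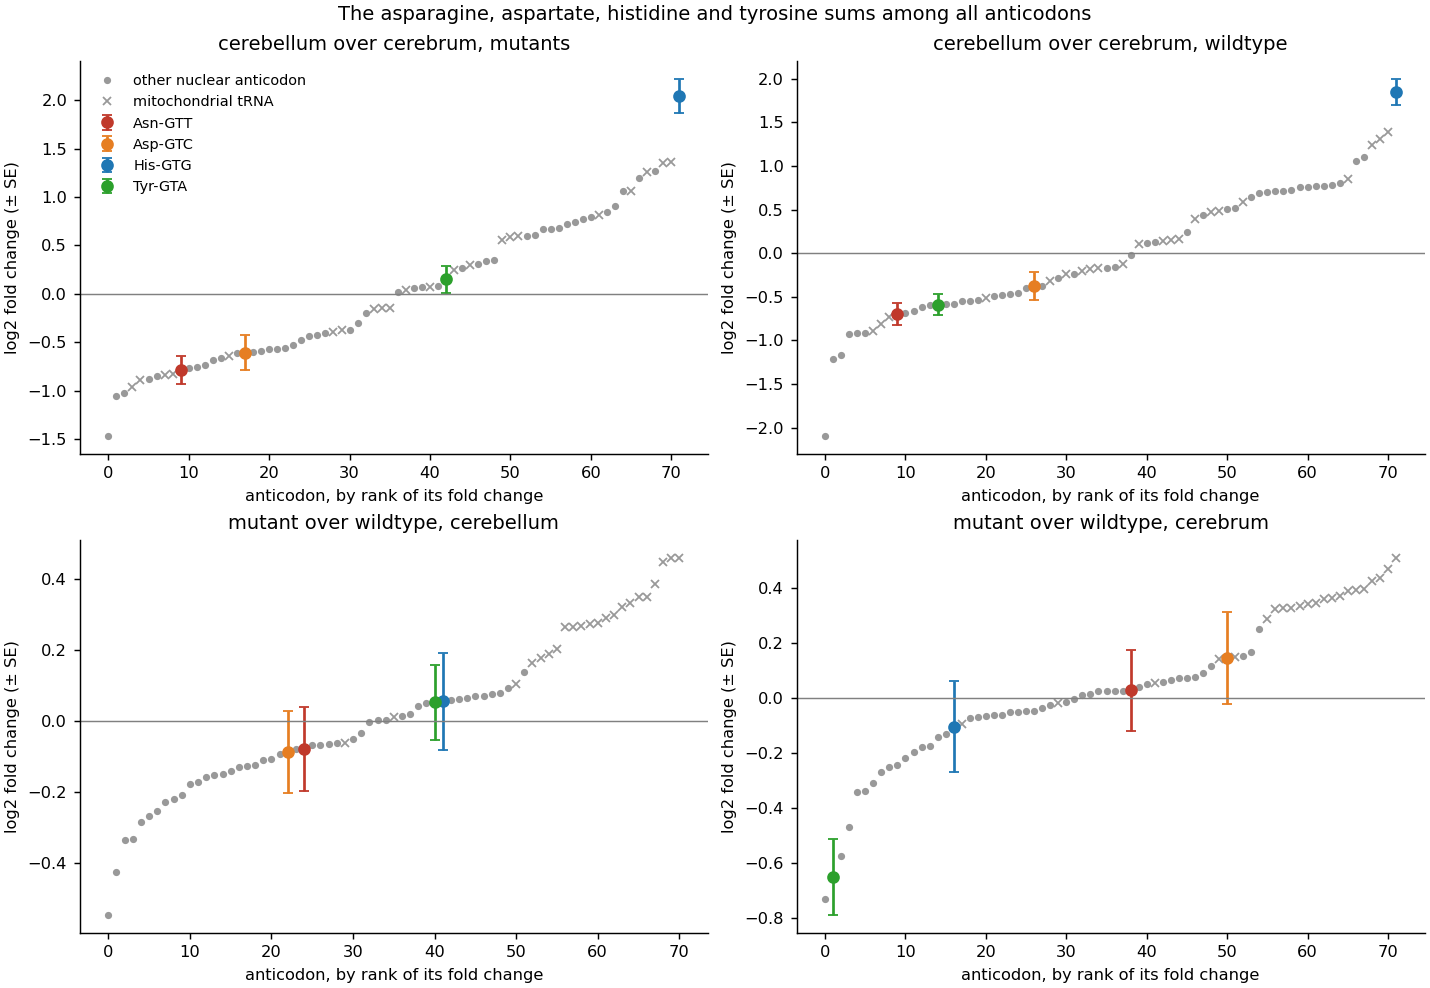
log2 fold change of every anticodon sum, in order of size, for the tissue comparison in mutants and in wildtype and the genotype comparison in cerebellum and in cerebrum; coloured points with SE bars are Asn-GTT, Asp-GTC, His-GTG and Tyr-GTA, grey dots other nuclear anticodons and grey crosses mitochondrial tRNAs. Asn-GTT and Asp-GTC lie among the middle values of the genotype comparison in cerebellum, as does Asn-GTT in cerebrum. Asp-GTC in cerebrum, at 0.14, lies toward the upper end of the nuclear anticodons, and at −0.15 without cerebrum mutant 1. Both lie on the low side of the tissue comparisons, where His-GTG is the highest point.

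In the authors' deposited tables the anticodon sums had values below 0 in mutants without passing: in the authors' deposited table for cerebrum Asn-GTT had a log2 fold change of −0.29 (adjusted p = 0.0771) and Asp-GTC −0.16 (adjusted p = 0.566). In the authors' deposited table for cerebellum Asn-GTT had −0.30 (adjusted p = 0.248) and Asp-GTC −0.34 (adjusted p = 0.0803). Both minor asparagine rows passed in the authors' deposited tables per tRNA: Asn-GTT-2-1 at −0.78 (adjusted p = 9.63e-05) in cerebrum and −0.54 (adjusted p = 0.0431) in cerebellum. Asn-GTT-1-1 had −0.41 (adjusted p = 0.00807) in cerebrum and −0.56 (adjusted p = 0.0201) in cerebellum in the authors' deposited tables. Of all sums 44.6% passed in cerebrum and 17.8% in cerebellum in the authors' deposited tables. The other 4 rows of each tissue did not pass there, where 57.3% of all rows passed in cerebrum and 24.3% in cerebellum in the authors' deposited tables. The cerebrum table per tRNA was deposited with the opposite sign to the counts, wildtype over mutant, and its values are given here as mutant over wildtype. For both sums and Asn-GTT-2-1 the cerebrum values are close to those above with mitochondrial and with spike-in scaling. The sources do not say how the authors scaled libraries.

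The anticodon sums whose TMM-scaled log2 CPM followed Asn-GTT most closely over the 21 libraries were Arg-TCG (Pearson r = 0.952, Spearman rho = 0.97), Ser-CGA (r = 0.951, rho = 0.942) and Arg-CCG (r = 0.942, rho = 0.942). After the group means were taken out, r was 0.915, 0.788 and 0.80 for these. For Asp-GTC they were Arg-CCG (r = 0.928, rho = 0.943), Arg-TCT (r = 0.877, rho = 0.875) and Arg-CCT (r = 0.873, rho = 0.899), with r of 0.939, 0.881 and 0.858 within groups. Asn-GTT and Asp-GTC followed each other with r = 0.827 (within groups 0.765). The libraries share tissue, depth and scaling, so these values describe likeness and carry no test.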

How the data were processed

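The authors deposited, for cerebrum and cerebellum, tables of read counts per tRNA and tables of their own comparisons. The tools named, per the submitters' processing notes, were Bowtie2, featureCounts, cutadapt and DESeq2 on mm10. Their versions, and the counting of reads that match several isodecoders, are not stated. Per the file headers, the deposited comparison tables hold a mean signal (baseMean), a log2 fold change with its error, a test score (stat), and raw and adjusted p-values. The signs of these tables were read against the counts, since no header gives a direction.

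Rows were summed per anticodon. The spike-in row entered neither library sizes nor tests. Counts were tested with edgeR 4.0.16 (limma 3.58.1, R 4.3.3), with TMM scaling, filterByExpr (minimum count 10), a robust quasi-likelihood fit per tissue for genotype and one over all 21 libraries for tissue and interaction, and Benjamini-Hochberg adjustment over all features at 0.05. Standard errors are the log2 fold change over the root of F. For shares and ratios, exact permutation tests were used (two-sided, all splits enumerated, the enumeration checked against scipy 1.17.1). Shares were taken over the nuclear isodecoders with a mean count of at least 50 whose anticodon had more than 1 row. The 3 likest anticodons were named by Pearson correlation, with a prior count of 1. Tests were tried on simulated counts. Alternatives were DESeq2 1.42.0, other scalings and filters, sex, the replicate number as a block, leaving out each library, and, chosen after seeing the data, the depth class of cerebellum libraries. Among the 46 pairs of libraries within a group none agreed to within counting error (chi-square per degree of freedom 52.1 or more).

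The members and lists were chosen with earlier results of these data known. All members are described; Polr3a itself is not measured by tRNA sequencing, so the labels were not checked against it. The host genes of the asparagine gene copies that lie in introns are not reported here.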

Additional observations from a re-analysis of the deposited data

Results flagged for a closer look

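In cerebrum mutant 1 the aspartate tRNAs stood far above the other 3 mutants. Its Asp-GTC sum was 116877 CPM, with the nearest mutant at 63724 CPM, its Asp-GTC-1 row 103161 CPM against 52912 CPM, and its Asp-GTC-2-1 row 23586 CPM against 11647 CPM. Its log2 ratio of Asp-GTC to all other nuclear tRNAs was −2.85, with the nearest mutant at −3.56. These 4 values are of the same reads and the same library, which was also the deepest, at 7588902 counts.

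In cerebellum mutant 3 the Asn-GTT-3 row was 84920 CPM, with the nearest mutant at 68238 CPM. In cerebellum wildtype 5, the 1 deep wildtype library of that tissue, the log2 ratio of Asn-GTT to Asp-GTC was 0.31, with the nearest wildtype library at 0.19. Of 96 groups of 4 to 6 libraries examined for a value far from the others, 6 held one. For independent groups chance gives about 1 in 20. These groups share reads and libraries, as the values of cerebrum mutant 1 above do, so the count cannot be set against that rate.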

How the results depend on the processing

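Of 1459 alternative values for single members and ratios, 1285 kept their direction and side of the threshold, 51 lost and 19 gained a call, and 104 turned sign, 1 of them a called value (Asn-GTT-1-1 between wildtype tissues with spike-in scaling, −0.37). The cause of these changes was not tested. Cerebrum mutant calls among the 6 rows were 0, against 2 with mitochondrial scaling, 1 with spike-in scaling and 2 with the replicate block; cerebellum mutant calls were 0, against 2 with mitochondrial and 2 with spike-in scaling. Between wildtype tissues 5 rows passed, against 2 with library totals, and 2 sums, against 1 with library totals and 1 with nuclear tRNAs only; between mutant tissues 3 rows passed, against 5 with spike-in scaling. Calls among all rows were 41 in cerebrum (111 mitochondrial, 74 spike-in, 65 replicate block, 27 nuclear only) and 5 in cerebellum (53 mitochondrial, 83 spike-in, 23 DESeq2, 16 joint fit, 9 library totals or no filter, 8 with a mean count of at least 50, 3 sex, 0 depth class); among all sums they were 8 in cerebrum (26 mitochondrial, 27 replicate block, 5 spike-in, 4 with a mean count of at least 50, 2 joint fit or nuclear only) and 0 in cerebellum (11 mitochondrial, 16 spike-in, 3 DESeq2 or joint fit). For the interaction 10 rows passed in all, against 28 with the replicate block, 17 with DESeq2 and 0 with the spike-in.

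The replicate numbers were not treated as pairs: same-numbered libraries deviated together with correlations of 0.55, 0.08, −0.31 and 0.26 in cerebrum, −0.01, 0.18, 0.08, 0.13 and −0.01 in cerebellum, 0.34, 0.17, −0.02, 0.45, 0.26 and 0.03 between wildtype tissues and −0.10, 0.25, −0.19 and 0.05 between mutant tissues. Between tissues, same-numbered libraries of a genotype always had the same sex. The cerebrum library closest in these deviations bore the same number for cerebellum wildtype 1, 2, 4 and 5 and mutant 2. It bore another number for wildtype 3 and 6 and mutants 1, 3 and 4. Whether the 2 tissues came from the same mice is not stated, and the main tissue tests treat the libraries as independent. With the replicate block Asn-GTT-2-1 (−0.45, edgeR adjusted p = 0.0336) and Asp-GTC-2-1 (0.39, edgeR adjusted p = 0.0112) passed in cerebrum. Paired permutation tests gave 0 calls for cerebrum shares, 0 for tissue shares and 0 for tissue ratios, where 4 pairs allow no p below 0.125 and 6 pairs none below 0.03125.

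With each library left out in turn, calls ranged from 0 to 1 among cerebrum rows, 3 to 5 among rows and 1 to 2 among sums between wildtype tissues, 1 to 2 among sums between mutant tissues, and 0 to 4 among cerebrum shares. Values near 0 that turned sign ranged as follows. In cerebrum they ranged over −0.0753 to 0.10 (Asn-GTT), −0.15 to 0.26 (Asp-GTC), −0.0611 to 0.0456 (Asn-GTT-1-1), −0.0736 to 0.32 (Asp-GTC-1) and −0.31 to 0.31 (Asp-GTC-4-1), and the log2 ratios over −0.15 to 0.0656 (Asn-GTT to Asp-GTC), −0.14 to 0.34 (Asn-GTT to His-GTG) and −0.20 to 0.44 (Asp-GTC to His-GTG). In cerebellum they ranged over −0.10 to 0.0417 (Asn-GTT-3), −0.0718 to 0.0444 (Asp-GTC-1), −0.0385 to 0.10 (Asp-GTC-2-1) and −0.14 to 0.37 (Asp-GTC-3-1), and the log2 ratios over −0.0625 to 0.0757 (Asn-GTT to Asp-GTC), −0.23 to 0.005 (Asp-GTC to His-GTG), −0.0615 to 0.0581 (Asn-GTT to other nuclear tRNAs) and −0.0305 to 0.0788 (Asp-GTC to other nuclear tRNAs). The interaction ranged over −0.18 to 0.028 (Asn-GTT), −0.34 to 0.0833 (Asp-GTC), −0.0175 to 0.23 (Asn-GTT-2-1) and −0.39 to 0.0745 (Asp-GTC-1), and the wildtype tissue difference in share over −0.0158 to 0.29 (Asp-GTC-1) and −0.30 to 0.0078 (Asp-GTC-2-1) percentage points.

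Other settings turned these values. In cerebrum, mitochondrial and spike-in scaling gave −0.29 and −0.26 for Asn-GTT, −0.17 and −0.16 for Asp-GTC, −0.285 and −0.25 for Asn-GTT-3, −0.198 and −0.19 for Asp-GTC-1, −0.0298 and −0.0199 for Asp-GTC-2-1, and −0.35 and −0.35 for Asp-GTC-4-1, which library totals put at −0.021 and the replicate block at −0.12. Asn-GTT was also −0.0498 with RLE size factors, −0.0499 with DESeq2 and −0.0401 with a mean count of at least 50. Asn-GTT-1-1 was 0.0501 with RLE, 0.0505 with DESeq2, 0.016 with no filter, 0.0063 with sex, 0.053 with nuclear tRNAs only, 0.026 with the replicate block and 0.072 in the joint fit. In cerebellum, Asn-GTT-3 and Asp-GTC-1 were 0.0178 and 0.0086 with RLE and with DESeq2, 0.0166 and 0.0068 with a mean count of at least 50, 0.0315 and 0.0239 with nuclear tRNAs only, 0.0054 and 0.0081 with the replicate block, 0.0452 and 0.0325 in the joint fit, and 0.0012 and 0.11 with depth class. Asp-GTC-2-1 was −0.01 with library totals, −0.34 mitochondrial, −0.56 spike-in and −0.0054 with sex, and Asp-GTC-3-1 −0.2975 mitochondrial, −0.47 spike-in, −0.0935 with sex, −0.0285 with the replicate block and −0.21 with depth class. The Asp-GTC sum was 0.039 with depth class, and within depth classes its log2 ratios were 0.0074 to mitochondrial aspartate, 0.0032 to Tyr-GTA and 0.071 to His-GTG. The Asn-GTT-2-1 interaction was −0.064 with the spike-in and its mutant tissue difference 0.021 with library totals, and Asn-GTT-1-1 was −0.83 with the spike-in between mutant tissues. At 4 to 49 counts per library, Asp-GTC-3-1 and Asp-GTC-4-1 allow no statement on direction. In cerebellum, depth and genotype can hardly be told apart, since 1 mutant was shallow and 1 wildtype library deep.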
